A study of Rattus norvegicus with 12 samples.

Results

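The long m6A peaks of the rat retina, those of 1000 bases or more, were chosen by the length that the peak lists of 6 retina samples give, 1 list for each sample. They numbered 12980 of 79857 peaks (16.3%) and lay in 3020 of the 9329 genes that had any peak (32.4%). The samples came from male Sprague-Dawley rats of 7 to 8 weeks, taken 12 h after surgery: 3 samples from sham-operated rats (sham 1 to 3) and 3 from rats with traumatic optic neuropathy (TON 4 to 6), in which the optic nerve was clamped. Each sample pooled the retinas of 4 rats and gave an m6A-immunoprecipitated library and an input library, so the spread within a group is that of pools and not of single animals. The retina as a whole was taken, and ganglion cells, whose axons are the ones clamped, are a minority of its cells.

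N6-methyladenosine (m6A) is a methyl mark that a writer complex places on adenosines of mRNA, that erasers can take off and that reader proteins recognise, with effects on splicing, export, translation and decay of the message. In MeRIP-seq, fragments of RNA are pulled down with an antibody to the mark, and a peak is a place where the pulled-down fragments exceed those of the input. Marks are known to gather in unusually long internal exons and around the stop codon, at the start of long last exons. A long peak is therefore a listed interval that can hold many marks, and its length does not count them. Whether enriched fragments fill it from end to end was not tested.

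The lists held 12424 to 14233 peaks. The sources used here give no read depth of the immunoprecipitated libraries, so how far depth sets the lists cannot be told. Each row carried its own number from the peak caller, MACS, and the rows came to 19.6% to 26.2% of the highest number in a list. A place without a row was therefore not shown to lack enrichment. Retinal identity was checked on the input libraries: the 24 photoreceptor genes of a marker list summed to 29369 to 31551 FPKM (fragments per kilobase of transcript, scaled to the size of the library) in the 6 libraries. Lens genes summed to 1913 to 6115 FPKM, highest in sham 1, and genes of the ocular surface epithelium to 204 FPKM in sham 1 against 4.47 to 28.6 FPKM in the other 5. The sources used here name no rat genome build, so positions are those of the lists, and whether a peak lies in coding sequence or in a UTR was not analysed.

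Long peaks were more numerous in every TON list than in any sham list. Sham 1, 2 and 3 held 1968, 1890 and 1584 long peaks, and TON 4, 5 and 6 held 2896, 2005 and 2637. TON 5 stood only just above sham 1, while TON 4 and TON 6 stood well apart. The means were 1814 ± 203 and 2513 ± 458 (SD, n = 3 each), 38.5% higher in TON (two-sided exact permutation test over samples, p = 0.1, the smallest that 3 against 3 allow). Long peaks made up 14.2%, 14.7% and 11.8% of the sham lists and 20.3%, 15.3% and 21.2% of the TON lists (exact permutation p = 0.1). Number and share rest on the length that chose the peaks. Longer peaks in some TON lists were known beforehand, so these p-values are descriptions. Peaks under 1000 bases averaged 11552 ± 537 in sham and 10740 ± 834 in TON, and there the groups overlapped (exact permutation p = 0.3, n = 3 each). Without TON 4 and TON 6, a comparison added after the data were seen, TON 5 alone was 10.5% over the sham mean.

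**Figure D1:**
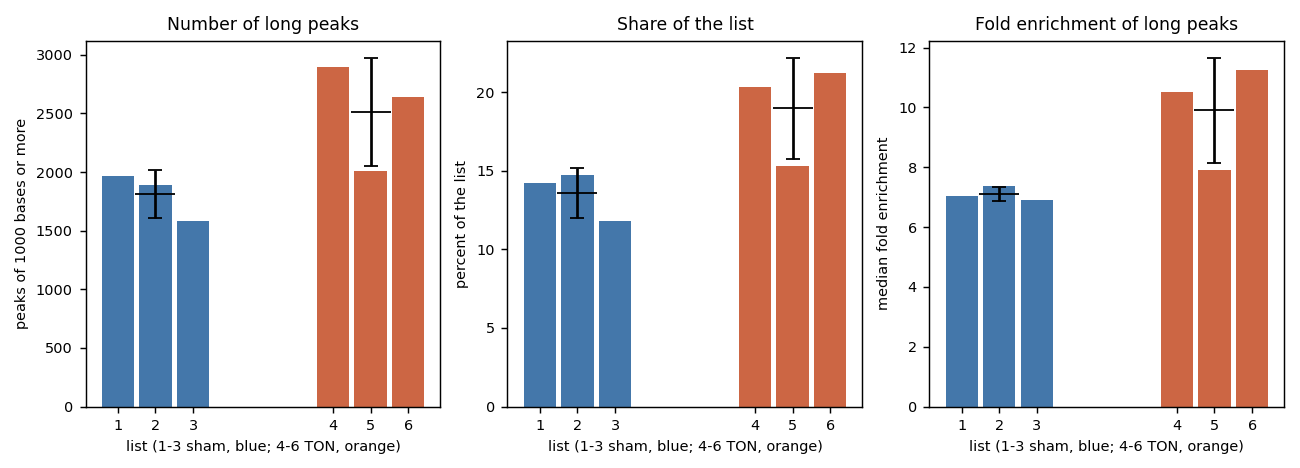
Number of long peaks, their percent of the list and their median fold enrichment over input (vertical axes) in each of the 6 lists (horizontal axis), sham in blue and TON in orange; bars are lists, and the black line and whisker of each group are the mean and SD of its 3 lists. TON 5, with 2005 long peaks, sits close to sham 1 with 1968, and TON 4 and TON 6 sit above both.

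The median length of the long peaks was similar in the 2 groups. It was 1605 ± 4.25 bases in sham and 1605 ± 30.8 in TON (SD, n = 3 each). Long peaks were chosen by this same length, so the likeness is a description. Peaks of 2000 bases or more numbered 573 ± 70.9 in sham and 778 ± 82.5 in TON (p = 0.1, exact permutation). Together the long peaks covered 3000235 to 3753358 bases in the sham lists and 3908663 to 5335543 in the TON lists, 37.1% more on average (exact permutation p = 0.1). They held 50.9% to 61.4% of all bases under peaks. The p-values for peaks of 2000 bases or more and for bases covered use the selecting length, so they are descriptions too. The limit of 1000 bases cut through a smooth run of lengths: peaks of 900 to 999 bases numbered 210 to 379 and those of 1000 to 1099 numbered 168 to 348 in a list. Just inside it lay peaks of exactly 1000 bases in Irf2bp2 (sham 1 and sham 3), Bcl7b (sham 2 and TON 6), Arl13b (TON 4) and Brinp2 (TON 5). Just outside lay peaks of 998 or 999 bases in Tecpr2 (sham 1 and sham 3), Eaf1 (sham 2), Slfn5 (TON 4), Chmp4bl1 (TON 5) and Klhl28 (TON 6).

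Fold enrichment, the enrichment over input that MACS gives each peak, was also higher in the TON lists. Whether it holds over the whole length of a long peak was not tested. The median over long peaks was 7.03, 7.36 and 6.91 in sham 1 to 3 and 10.5, 7.92 and 11.2 in TON 4 to 6. The means were 7.10 ± 0.235 and 9.90 ± 1.75 (SD, n = 3 each, exact permutation p = 0.1), with TON 5 again nearest to sham. Peaks under 1000 bases leaned the same way, from 6.54 to 7.14 in sham and from 7.10 to 9.22 in TON. There the groups overlapped, since TON 5 at 7.10 fell below sham 2 at 7.14. The median score of all peaks (minus 10 times the log10 of the p-value of the peak) averaged 195 ± 27.4 in sham and 276 ± 62.5 in TON, and TON 4 and TON 6 had the highest (exact permutation p = 0.2, n = 3 each). The part of that general strength of the peaks in the number and fold of long peaks was not tested. MACS also gave each peak a false discovery rate (FDR). It was over 50% for 0%, 26.5% and 61.7% of the long peaks in sham 1 to 3. In TON 4 to 6 it was over 50% for 8.08%, 8.33% and 25.0%, so listed long peaks include uncertain calls.

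Long peaks that shared at least 1 base were joined across the lists into 3324 stretches with a median span of 1594 bases. Of these, 1116 (33.6%) carried a long peak in all 6 lists, and 548, 499, 374, 350 and 437 in exactly 1, 2, 3, 4 and 5 lists. The largest class was thus that of stretches found in every sample. Stretches seen in a single list came mostly from TON 4 (276) and TON 6 (130), against 45, 33, 26 and 38 from sham 1, sham 2, sham 3 and TON 5. Longer stretches were shared more often: 26.5% of the 1456 stretches of 1000 to 1499 bases were long in all 6 lists, 39.1% of the 681 of 2000 to 2999 bases, and 51.0% of the 49 of 5000 bases or more. A longer stretch can shrink further and still pass the limit, so this order is a description.

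A list that had no long peak on a stretch usually listed no peak there at all, and rarely listed it in pieces. Of the 19944 pairs of a stretch and a list, 12877 held 1 long peak, 705 held 1 short peak, 28 held several short peaks, 31 several long peaks, 41 long and short peaks together, and 6262 no peak. Among the 6995 pairs without a long peak, 89.5% had nothing, 10.1% had 1 short peak and 0.400% had several short peaks. The lone short peaks had a median length of 852 bases and covered a median of 67.4% of the stretch. Empty stretches were fewest in TON 4 (8.66%) and TON 6 (16.7%), and made up 36.4%, 40.3% and 49.6% of stretches in sham 1 to 3 and 36.7% in TON 5. These shares follow in part from the choice of stretches, since TON 4 and TON 6 supplied the most long peaks. In the empty pairs the next peak of the list was a median of 29670 bases away, and in 2357 of them (37.6%) the list had a peak elsewhere in the same gene. In 838 of those 2357 (35.6%) such a peak lay where no list with the long peak had one. Whether the same enriched region was listed at another part of the gene there was not tested, and this bears on every empty pair and on the stretches of 1 group given below.

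**Figure D2:**
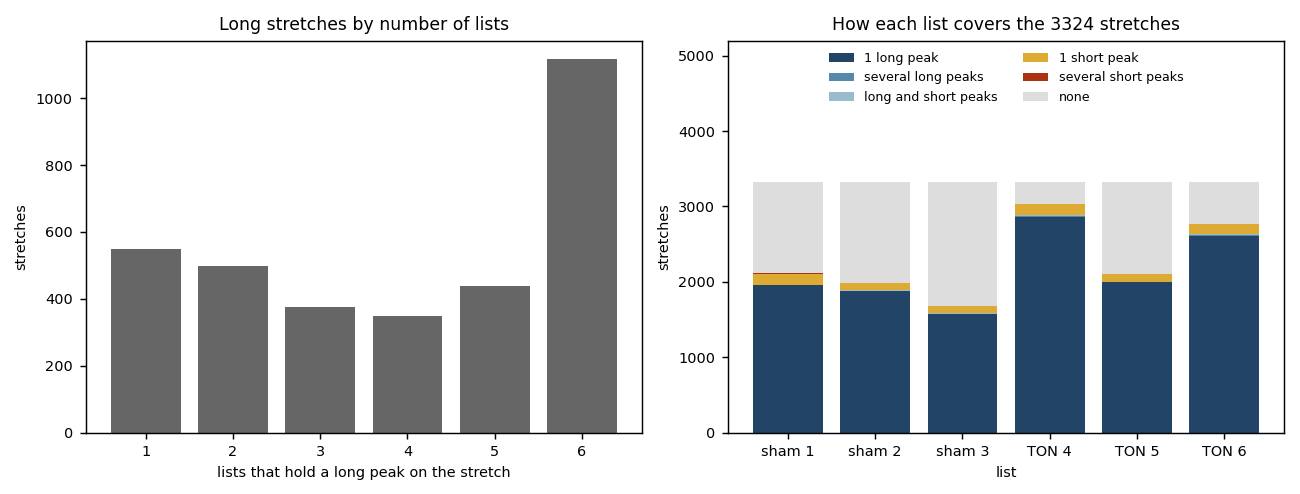
Left, number of stretches (vertical axis) by the number of lists that hold a long peak on them (horizontal axis); right, number of stretches that each list covers by 1 long peak, by other combinations or not at all, as stacked bars adding to 3324. The class of 6 lists is the tallest with 1116 stretches, and several short peaks make up only 28 of all 19944 pairs.

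The listed ends of long peaks recurred to the base. Of the 1104 stretches with exactly 1 long peak in each of the 6 lists, 672 (60.9%) had the same start and end in all 6, 393 (35.6%) shared 1 end in all 6, and 39 shared neither. Over all long peaks 94.1% had at least 1 end in common with a peak of another list, and 67.1% had both. Peaks under 1000 bases had both ends in common in 85.3%. Map1b and Rtn4 below are examples with the same listed start and end in every list. Whether the listed ends mark the borders of the enriched fragments was not tested.

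Within the annotated extent of the gene, long peaks lay toward the 3′ end. Of the 11793 long peaks that could be placed in a gene of the expression table, 44.2% reached the 3′ end of the gene to within 5 bases, 14.4% reached the 5′ end, 7.23% spanned the whole gene and 48.7% reached neither end. Peaks under 1000 bases reached the 3′ end in 11.6%, the 5′ end in 16.1% and both in 0.486%. A wider interval reaches an end more easily, so the difference is a description. The share at the 3′ end was alike in the groups, from 40.5% to 47.4% of placed long peaks in the sham lists and from 43.6% to 45.7% in the TON lists. Stretches that took in a whole gene, 215 in all, were long in all 6 lists in 47.4%. The immediate early genes Ier2 and Ier5, the transcription factors Sox11 and Jund, the writer-complex gene Rbm15 and the protocadherin gene Pcdh9 were among them.

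**Figure D3:**
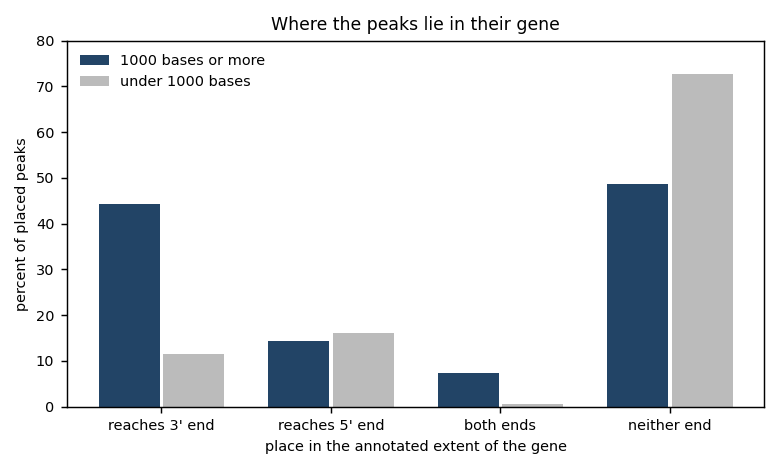
Percent of placed peaks (vertical axis) that reach the 3′ end, the 5′ end, both ends or neither end of their gene (horizontal axis), for long peaks in dark blue and peaks under 1000 bases in grey, over all 6 lists; peaks that reach both ends count in the first 3 pairs of bars. The dark bar at the 3′ end stands at 44.2% and the grey one at 11.6%.

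Zfp292, a large zinc finger gene, held one of the longest intervals at chr5:54851039-54859960, at the 3′ end of the gene, with peaks of 8922, 8104 and 8922 bases in sham 1 to 3 and of 8002, 8922 and 8077 in TON 4 to 6. The length differed between lists while the fold enrichment stood at 14.6, 31.8 and 26.6 in sham and at 73.9, 42.7 and 71.3 in TON, without overlap. Ahnak, which encodes a very large scaffold protein, had a peak of 8269 bases at chr1:232138272-232146540 in TON 4 and TON 5 and no row on that stretch in the other 4 lists. TON 6 and the sham lists held only short peaks elsewhere in Ahnak.

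Among the stretches long in all 6 lists, the 10 with the most input RNA each had the same length in every list. Rtn4 encodes Nogo, an inhibitor of axon growth, and carried 2352 bases in every list at chr14:113805806-113808157. Its fold enrichment was 8.24, 11.9 and 12.2 in sham and 21.0, 17.1 and 17.4 in TON. Its input RNA was 281 to 316 FPKM in sham and 271 to 318 FPKM in TON, so the groups did not overlap in fold and did overlap in RNA. Map1b, a microtubule-binding protein of growing axons, carried 6481 bases at chr2:48844861-48851341 in every list. Its fold enrichment was 14.5, 26.6 and 30.3 in sham and 73.5, 49.2 and 60.2 in TON, and its input RNA overlapped between the groups at 254, 305 and 283 FPKM against 241, 290 and 332 FPKM. Ank2, which anchors membrane proteins to spectrin, carried 6231 bases in every list with fold enrichments of 4.40, 6.04 and 5.32 in sham and 14.5, 10.7 and 16.4 in TON. The FDR of the Ank2 peak was 22.1%, 16.5% and 92.1% in sham and 7.43%, 8.52% and 13.7% in TON. Its call in sham 3 is therefore uncertain.

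The other stretches among these 10, given in no order, were those of Neurod1, a transcription factor of retinal neurons, Chd9, a chromodomain helicase, Tsc22d1, a transcriptional regulator, Gabarapl1 of the autophagy machinery, Arhgap5, a GTPase-activating protein gene, Mrfap1 and LOC100360316. Their lengths ran from 1017 bases in Mrfap1 to 3717 bases in Arhgap5. In sham 3 the FDR was 82.9% for the Chd9 peak and 92.9% for the Gabarapl1 peak, so these calls are uncertain. Neurod1 had a peak of 1738 bases with fold enrichments of 22.9, 18.3 and 17.8 in sham and 33.4, 22.2 and 34.5 in TON, so TON 5 fell below sham 1. LOC100360316 went the other way, at 10.5, 9.70 and 8.77 in sham and 8.61, 8.13 and 8.34 in TON. The input RNA of Chd9 stood at 734 FPKM in TON 5 and at 104 to 129 FPKM in the other 5 libraries.

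Over the 1116 stretches long in all 6 lists, median fold enrichment was 8.24, 8.42 and 7.39 in sham 1 to 3 and 15.4, 8.99 and 14.9 in TON 4 to 6 (means 8.01 ± 0.550 and 13.1 ± 3.57, SD, n = 3 each, exact permutation p = 0.1). This set was chosen after the data were seen, and it holds the stretches fixed. The bases covered had medians of 1690 ± 32.1 in sham and 1702 ± 16.0 in TON. The choice of stretches long in every list left little room for these to differ, so they are a description. All 3 TON lists exceeded all 3 sham lists in fold at 435 of these stretches (39.0%), against 25.4% of all merged regions with a peak in every list. The sham lists exceeded the TON lists at 7 (0.627%), against 3.73% of those regions. The fold at these stretches came close to sham in TON 5 and stood apart in TON 4 and TON 6.

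**Figure D4:**
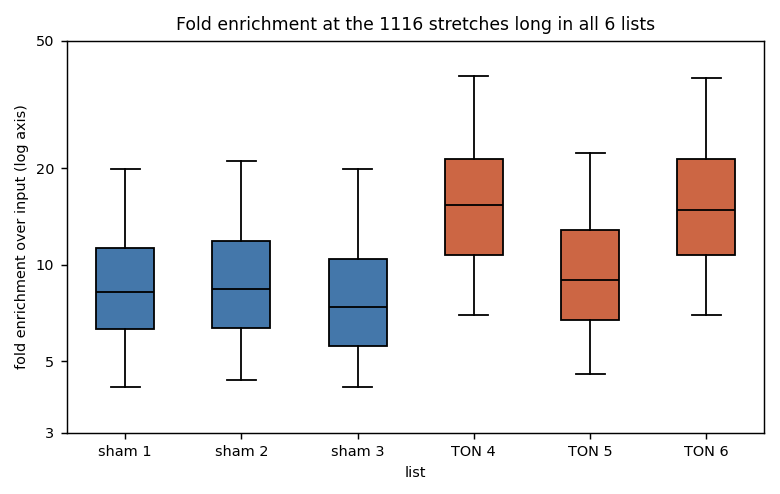
Fold enrichment over input on a log axis (vertical) at the 1116 stretches long in all 6 lists, by list (horizontal), sham in blue and TON in orange; the line in each box is the median, the box the middle 50% of stretches and the whiskers the 5th to 95th percentiles. The boxes of TON 4 and TON 6 sit highest, with medians of 15.4 and 14.9, and that of TON 5 lies at 8.99 near the sham boxes.

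Bases covered by peaks were then compared stretch by stretch. All 3 TON lists exceeded all 3 sham lists at 195 of the 3324 stretches (5.87%), against 2.20% of all 24605 merged regions, and the sham lists exceeded the TON lists at 41 (1.23%), against 2.10%. The direction follows in part from the choice of stretches by any list. Both counts grew when any 1 sample was left out, since fewer lists then had to be exceeded, and without TON 5 the first reached 605. Stretches long in all 3 TON lists and in no sham list numbered 99 (2.98% of 3324), and the opposite case 10 (0.301%). Counting those long in any list of a single group, 897 were found in TON lists only and 142 in sham lists only. Of the 897, 276 were long in TON 4 alone and 130 in TON 6 alone, the lists with the most long peaks. The same counts over all merged regions were not made.

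At the 99 stretches of the first kind, the sham lists had no peak at all in 281 of 297 pairs (94.6%). Their genes had some listed peak in all 3 sham lists for 34 stretches and in none for 39. Cers4, a ceramide synthase, led them by input RNA with 2159 bases at chr12:6568236-6570394, the 3′ end of the gene, in each TON list, at fold enrichments of 26.6, 21.4 and 29.6, and no row in the sham lists. In the input its RNA was 117, 119 and 117 FPKM in sham and 112, 95.0 and 102 FPKM in TON. Ogt, the O-GlcNAc transferase, carried 2236 bases at the 3′ end in each TON list with folds of 12.5, 7.91 and 11.6. The FDR of these peaks was 23.2%, 58.1% and 60.1% in TON 4 to 6, so the calls in TON 5 and TON 6 are uncertain. The input RNA of Ogt was 130, 127 and 100 FPKM in sham and 120, 92.3 and 93.2 FPKM in TON. The sham inputs held both messages at 100 to 130 FPKM.

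The other TON-only stretches among the first 10 by input RNA came from genes of varied function. Ank3, the gene of ankyrin-G, which builds the axon initial segment, carried 2151 bases in each TON list at folds of 12.1, 9.82 and 13.8. Tnrc6b, a partner of Argonaute in microRNA silencing, carried 2343 bases at 14.9, 6.89 and 14.3. Fam161a, a ciliary gene of photoreceptors mutated in retinitis pigmentosa, carried 1131 bases at 18.4, 12.9 and 18.3. Its input RNA was 87.9, 99.8 and 89.6 FPKM in sham and lower in each TON library at 71.9, 59.6 and 60.4 FPKM, a difference that did not pass limma (log2 fold of -0.53, adjusted p = 0.241). Ist1 of the ESCRT machinery, Lrrc8b of the volume-regulated anion channel and the transcription factor gene Sp4 had lower folds, between 2.85 and 6.74. Kdm4c, a histone demethylase, gave 2 stretches of nearly equal length, with 1004, 1029 and 1048 bases at the first and 1005, 1030 and 1049 bases at the second in TON 4 to 6. Such a pair may be copies that share reads, so both are uncertain.

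The 10 stretches long in the sham lists only were shorter, with a median span of 1282 bases against 1776 for the 99. Hnrnpk, which encodes an RNA-binding protein of splicing and translation, had 1175 bases at chr17:8879853-8881027, the 3′ end of the gene, in each sham list, at fold enrichments of 52.1, 58.0 and 66.3. No TON list had a row there. The message itself stood in the input at 138, 137 and 145 FPKM in sham and 158, 159 and 154 FPKM in TON. TON 4 and TON 6 listed a short peak elsewhere in the gene. Dlgap1, a scaffold of the postsynaptic density, had 1044 bases in each sham list at lower folds of 4.82, 5.87 and 5.61.

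In 12 of the 30 pairs of these stretches with a TON list, a short peak took the place of the long one. Ptrh2, a mitochondrial peptidyl-tRNA hydrolase, had peaks of 1038, 1548 and 1548 bases in sham 1 to 3 and of 832, 785 and 856 in TON 4 to 6, while the fold was 6.64, 6.95 and 5.75 in sham and 13.3, 6.19 and 12.9 in TON. Msantd3 had peaks of 1080, 1059 and 1000 bases in sham 1 to 3 and of 779, 936 and 841 in TON 4 to 6, with folds of 11.6, 14.3 and 13.8 against 28.2, 17.9 and 23.1. That peaks at both genes were narrower in every TON list follows from the choice of these stretches. At Msantd3 the peaks were higher in fold in every TON list. Zfp449, Spryd4 and Prkag2, the last a regulatory subunit of AMP-activated kinase, also had short peaks in at least 1 TON list. Angel2, Mlx and Mast3 had no TON peak on the stretch.

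**Figure D5:**
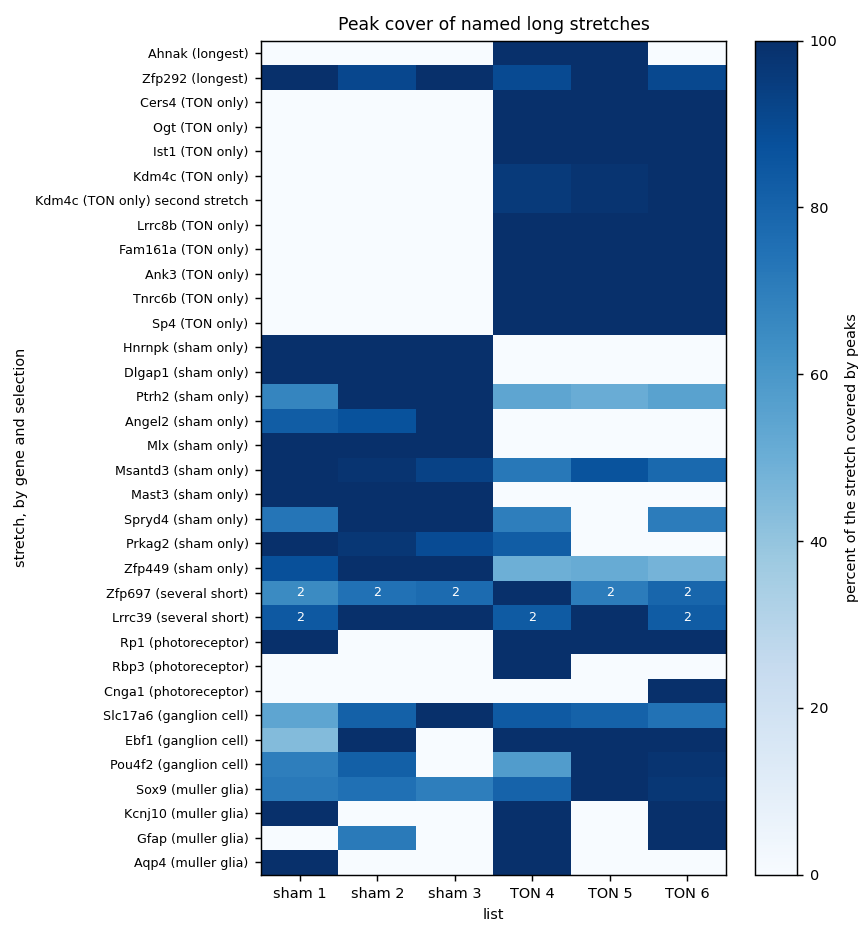
Percent of the stretch covered by peaks (blue shade, 0 to 100) for named stretches (vertical axis, with the selection in parentheses) in each list (horizontal axis); a number in a cell gives the peaks there when more than 1. Rows of the TON-only selection are empty in the 3 sham lists, and 5 of the 10 sham-only rows show partial cover in at least 1 TON list.

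Breaking of a long peak into several short ones was found at 18 stretches in any list, and at 2 of them in 3 or more lists. Zfp697 had 1454 bases in TON 4 at chr2:220079209-220080662 and 2 short peaks in each of the other 5 lists, of 597 and 350 bases in sham 1, 662 and 424 in sham 2, 759 and 361 in sham 3, 658 and 370 in TON 5, and 752 and 397 in TON 6. Its input RNA was at most 0.397 FPKM, and a second stretch of 1454 bases carries the same name, so reads may be shared between copies. Lrrc39 had 1695 bases in sham 2, sham 3 and TON 5, and 2 short peaks of 854 and 576 bases in sham 1, 825 and 587 in TON 4, and 820 and 586 in TON 6. At both genes the lists divided across the groups. Mitf, the transcription factor of pigment cells, had 1367 and 979 bases in sham 1, 1554 and 736 in TON 4 and 1390 and 692 in TON 6, against 1 peak of 1560, 2678 and 1560 bases in sham 2, sham 3 and TON 5.

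By gene group, long peaks were most frequent in zinc finger genes, taken as symbols that begin with Zfp or Znf and a digit. Of the 230 with any peak, 188 (81.7%) had a long one, against 32.4% of all genes with a peak. A long peak in all 6 lists was found in 117 of the 188. For scale, input RNA was tested for 2914 genes with a long peak, and 1015 genes tested were long in all 6 lists. Zfp407 carried 4654 bases in every list, with folds of 14.3, 14.8 and 15.7 in sham and 20.2, 15.7 and 23.9 in TON. Zfp106 carried 2178 and Zfp638 1513 bases in every list, and Zfp187 3151 to 3377 bases. Cadherins and protocadherins, adhesion molecules of synapses and axons, had a long peak in 19 of 24 genes with a peak (79.2%). Fat1 carried 4068, Pcdh7 3182, Pcdh9 3124 and Pcdh1 2280 bases in all 6 lists. The fold at Pcdh7 was 15.9, 11.8 and 9.53 in sham and 39.1, 18.1 and 34.3 in TON.

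Chromatin regulators had a long peak in 22 of 35 genes with a peak (62.9%, against 32.4% of all genes with a peak). Kmt2d, a histone methyltransferase, carried 2112 bases in every list with folds of 7.98, 6.82 and 7.60 in sham and 8.00, 7.26 and 5.68 in TON, so the groups overlapped. Arid1a, a subunit of the BAF remodelling complex, carried 2775 to 3013 bases with folds of 11.3, 9.31 and 8.17 against 24.8, 11.3 and 22.9. Nsd1, another histone methyltransferase, carried 2551 bases in every list, and the helicase gene Chd2 3159 to 3242 bases. Genes of the m6A machinery itself had a long peak in 10 of 16 with a peak (62.5%). Zc3h13, of the writer complex, carried 1197 bases in every list with folds of 23.5, 28.0 and 20.2 in sham and 62.4, 30.4 and 64.1 in TON. Rbm15 of the writer complex carried 2865 bases, and the readers Ythdf3 and Ythdf2 carried 1599 and 1510 bases, each in every list.

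Cytoskeletal scaffolds had a long peak in 13 of 25 genes with a peak (52%, against 32.4% of all genes with a peak). Macf1 and Dst, which link microtubules and actin, carried 1472 bases each in every list. The equal length, in genes of 1 family on different chromosomes, is as listed. Synaptic genes had a long peak in 16 of 25 (64%). Pclo, a scaffold of the presynaptic active zone, carried 2188 bases and the neuroligin gene Nlgn1 1136 bases in every list. The neurexin gene Nrxn3 carried 1435 bases in all lists but sham 1. Axon guidance genes had a long peak in 11 of 26 (42.3%), nearer the share of all genes. The ligand gene Slit2 carried 1466 bases in sham 1 and 2202 to 2280 in the other lists. The semaphorin receptor gene Plxna1 carried 1184 or 1188 bases, and the ephrin receptor gene Ephb1 1310 to 1511 bases. Large ubiquitin ligases had a long peak in 6 of 20 (30%), near the share of all genes. Birc6, an inhibitor of apoptosis, and Mycbp2, which promotes axon degeneration, had 1395 and 1644 bases in every list. Znrf3 had a long peak in 4 lists and Cul3 in 3.

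Genes of transcription after injury had a long peak in 11 of 21 with a peak (52.4%, against 32.4% of all genes with a peak). Ier2 carried 1523 bases in every list, with folds of 6.09, 6.21 and 4.09 in sham and 12.7, 10.2 and 7.65 in TON. Sox11, which promotes axon regrowth of ganglion cells in mouse, varied in length, at 1037, 1817 and 1949 bases in sham 1 to 3 and 1784, 2017 and 1967 in TON 4 to 6. Ier5 carried 2015 to 2093 bases in every list, and Jund 1680 bases in all lists but sham 3. The input RNA of this gene list summed to 207 to 230 FPKM in sham and to 291, 333 and 792 FPKM in TON 4, 5 and 6.

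Photoreceptor genes, the most abundant messages of the retina, had a long peak in 4 of 10 genes with a peak. This share of 40% was near the 32.4% of all genes with a peak. No photoreceptor gene was long in all 6 lists. Rp1, a microtubule protein of the photoreceptor outer segment, had 5992 bases at the 3′ end of the gene in sham 1 and in all TON lists, at folds of 8.33, 9.44, 8.57 and 14.1, and no row in sham 2 and sham 3. RNA of Rp1 in the input was 608, 719 and 770 FPKM in sham and 735, 573 and 540 FPKM in TON, and these ranges overlapped. Rbp3, which carries retinoids between cells, had 3120 bases in TON 4 only. Cnga1, the rod channel subunit, had 1512 bases in TON 6 only, at a fold of 84.6.

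Ganglion cell markers had a long peak in 3 of 7 genes with a peak (42.9%, against 32.4% of all genes with a peak). Slc17a6, the vesicular glutamate transporter of ganglion cells, had 1126, 1701 and 2095 bases in sham 1 to 3 and 1758, 1692 and 1558 in TON 4 to 6, at overlapping folds of 8.83, 9.09 and 8.34 against 12.0, 6.73 and 16.5. Ebf1 had 1217 bases in sham 2 and all TON lists, 533 in sham 1 and none in sham 3. Pou4f2, the ganglion cell transcription factor, had 879 and 1024 bases in sham 1 and sham 2, no row in sham 3, and 725, 1258 and 1236 bases in the TON lists. Müller glia markers had a long peak in 4 of 10 (40%). Sox9 was long in every list, without overlap of the groups in length. It had 2151, 2247 and 2088 bases in sham 1 to 3 and 2403, 2994 and 2905 in TON 4 to 6. Its fold was 7.70, 9.87 and 6.87 in sham and 18.3, 14.3 and 12.1 in TON, and its input RNA was 25.2 to 31.9 FPKM in sham and 26.9 to 32.7 FPKM in TON. Kcnj10, the potassium channel of these cells, was long in sham 1, TON 4 and TON 6, and Aqp4, their water channel, had 4251 bases in sham 1 and TON 4 only.

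Markers of neighbouring tissues gave few long peaks. Dsp, the gene of desmoplakin in epithelial junctions, had 3037 bases in sham 1 and 1006 in TON 6, and its input RNA was 6.46 FPKM in sham 1 and at most 0.922 FPKM in the other libraries. The lens gene Bfsp1 had 1061 to 1099 bases in every list, with input RNA of 9.72 FPKM in sham 1 and 1.41 to 4.69 FPKM in the others. The part of epithelium and lens in the long peaks of sham 1 was not tested. The skeletal muscle markers summed to 4.96 to 6.76 FPKM in the sham inputs and to 18.6, 62.1 and 6.17 FPKM in TON 4, 5 and 6, and had no long peak among 2 genes with a peak. The part of muscle RNA in the lists of TON 4 and TON 5 was not tested. Pigment epithelium markers summed to 352, 434 and 699 FPKM in sham 1 to 3 and to 438, 501 and 368 FPKM in TON 4 to 6. Of the 6 with a peak, only Mitf had a long one. The part of pigment epithelium in the peaks of Mitf was not tested. Blood and leukocyte markers had no peak. In whole tissue, fewer cells of a type and less RNA per cell cannot be told apart.

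Genes with a long peak had a slightly lower level of message than other genes with a peak. The mean input RNA of the 2829 genes with a long peak that had a single entry in the expression table had a median of 14.3 FPKM, against 17.7 FPKM for the 6045 genes with a peak but no long one. Genes long in all 6 lists had a median of 16.1 FPKM (n = 979) and genes long in 1 list 12.2 FPKM (n = 439). Input RNA was compared between the groups with limma on log2(FPKM + 1), with Benjamini-Hochberg adjustment over the 15900 genes whose sham or TON mean reached 0.1 FPKM. Of the 2914 genes with a long peak that were tested, 1 passed an adjusted p of 0.05, higher in TON, against 0.0377% of all genes tested, and 0 were lower in TON against 0.00629%. At an unadjusted p of 0.05, 155 were higher and 91 lower, 8.44% together against 10.4% of all genes tested, and the median log2 fold was 0.03 against 0.06. Among the genes of the 99 TON-only stretches, 93 were tested by limma and 0 passed, with 5 higher and 6 lower at an unadjusted p of 0.05. Of the 10 sham-only genes, 0 passed and 0 reached an unadjusted p of 0.05 in limma.

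The gene that passed was Gfap, the glial filament protein that Müller cells and astrocytes make after injury. Its input RNA was 10.1, 7.28 and 9.58 FPKM in sham and 39.1, 36.5 and 31.0 FPKM in TON, with no overlap. The means were 8.998 ± 1.52 and 35.5 ± 4.11 FPKM (SD, n = 3 each), a ratio of 3.95 and a log2 fold of 1.87 ± 0.16 (SE, limma adjusted p = 0.0102). Without sham 1, TON 4 or TON 5 the limma adjusted p was 0.0513, 0.0795 or 0.0643. Its long peak, at the 3′ end of the gene at chr10:90763150-90764585, was 1436 bases in TON 4 and TON 6 and 1023 bases in sham 2, and sham 1, sham 3 and TON 5 had no row there. The fold of that peak was 3.43 in sham 2, 5.46 in TON 4 and 5.71 in TON 6.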

How the data were processed

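The members and gene lists were chosen with earlier results of these data known. The authors trimmed reads with cutadapt 1.9.3, aligned them with HISAT2 2.0.4 and called peaks in each sample with MACS against its input. The methods name a human build for the RNA reads although the samples are from rat, and no source used here names the build of the rat positions. The deposited peak lists give length in bases, a score, a fold enrichment (a ratio within the sample) and an FDR in percent. The score was capped at 3100 for most of the strongest peaks. The authors made FPKM per gene with Cufflinks and Cuffdiff, and deposited beside it a scaled signal labelled as counts that sums to 4076660 to 4143970 per library. This signal entered no test.

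Lists were matched to samples by their number. Peaks sharing at least 1 base were joined into stretches. Positions are counted from 1. Sham and TON means were compared over samples with the exact permutation test, two-sided. For input RNA, limma 3.58.1 was used in place of the count test that scaled values do not allow, with trend, and was tested on simulated data. Python 3.11.15 and R 4.3.3 were used. Named genes were the longest peaks, the most shared stretches, those of 1 group, broken stretches, up to 4 genes per list, genes that passed limma and the neighbours of the length limit. Alternatives were other lengths (800, 1500, 2000 bases), score limits, overlaps, pseudocounts (0.1, 0.01 FPKM), filters, median centring and leaving out each sample. No sequence was printed because no genome of the build of the lists was used here. Some genes that the rule for named genes selects are not reported here.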

Additional observations from a re-analysis of the deposited data

How the results depend on the processing

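The number, share, bases and median fold of long peaks stayed higher in TON under each of the 6 length and score alternatives and each omission of 1 sample. The excess of TON over sham ranged over those omissions from 27.9% to 52.5% for number, 31.0% to 53.0% for share, 28.2% to 48.9% for bases and 30.0% to 53.3% for fold. The top 50% of each list by score gave overlapping groups for number (exact permutation p = 0.2). With 1500 and 2000 bases as the limit, the stretches long in all 6 lists fell to 646 and 344, those long in all 3 TON lists only to 63 and 46, and those in all 3 sham lists only to 2 and 2. A score of at least 100 left 4 of the last kind. Fewer peaks qualify by construction. Non-overlapping stretches ranged from 247 to 605 (TON over sham) and from 58 to 88 (sham over TON) without 1 sample, with 325, 345 and 605 of the first kind without sham 1, sham 2 and TON 5, and 81, 75, 69 and 88 of the second without sham 1, sham 3, TON 4 and TON 5. Without TON 4 and TON 6, added after seeing the data, these were 386 and 167, and the stretches of 1 group were 189 (TON 5) and 72 (sham), since fewer lists have to be exceeded. Genes with a long peak passing limma numbered 0 to 2 without 1 sample, 2 with a mean of at least 1 FPKM (Cebpd added), and 0 among genes long in all 6 lists, an alternative added after seeing the data, where 82 had an unadjusted p under 0.05 by limma. No paired analysis was possible because sham samples are numbered 1 to 3 and TON samples 4 to 6, with no number in common. Depth of the immunoprecipitated libraries was not known, which limits any reading of a missing row.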
